A study of Mus musculus with 10 samples.

Results

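The genes described here encode the proteins of the cytosolic ribosome, measured as messenger RNA in whole kidney. They were chosen by name alone: a probe set counted if the platform annotation gave it exactly 1 gene symbol, and that symbol began with Rpl or Rps followed by a digit, or with Rplp. S6 kinase genes (Rps6k) and pseudogenes (-ps) were left out. The rule found 49 genes of the 18193 named genes on the array, with 104 probe sets between them. A probe set is a group of short probes on the array that read 1 transcript, and each gene is represented by its brightest probe set. Of the 49 genes, 46 passed the filter on dim signals that 12196 genes of the table passed, and Rpl3l, Rpl39l and Rps16 did not. One name that meets the rule, Rps19bp1, encodes a binding partner of Rps19 and no part of the ribosome. Another 110 probe sets list several symbols, one of which meets the rule, and were not used, so well-known genes such as Rpl5 and Rplp1 have no value here.

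The kidneys came from male C57BL/6 mice aged 30 months, 5 on a control diet and 5 under long-term calorie restriction. Each mouse was measured on 1 of 10 Affymetrix Mouse Genome 430 2.0 arrays. The degree and the length of the restriction, and when in the day and in what feeding state tissue was taken, are not stated in the labels. Values are MAS5 signals, an intensity that the authors scaled to a common trimmed mean on each array.

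A ribosome is built from a small subunit, which reads the messenger RNA, and a large subunit, which joins the amino acids, and each protein is needed in about the same number of copies. Messenger RNAs of ribosomal proteins are among the most abundant in a cell and begin with a run of pyrimidines, the terminal oligopyrimidine tract. Through this tract the kinase complex mTORC1 and the binding protein LARP1 set how much of the RNA is translated. Calorie restriction is known for lowering mTORC1 signalling, but a messenger RNA level says nothing of how much of it is being translated. In tubule cells, the bulk of a kidney, ribosomes supply transporters and metabolic enzymes.

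Some properties of the arrays moved with the diet and touch every value that follows. For Gapdh and Actb the log2 ratio of 3' to 5' control signal, which is high where RNA is short or labelling incomplete, was 0.76 to 1.39 on control arrays. It was 2.21, 2.01 and 1.75 on calorie-restricted replicates 1, 2 and 3, and 1.24 and 1.16 on replicates 4 and 5. The mean signal over all probe sets was 755 to 768 on control arrays and 786 to 831 on calorie-restricted arrays, and the highest single signal was 30390 to 34450 against 37100 to 48990. Calorie-restricted arrays thus had a brighter upper end after the authors' scaling, which is where most ribosomal protein probe sets lie. The part of these array properties in the results was not tested.

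Under the authors' scaling, 10 of the 46 ribosomal protein genes rose in calorie-restricted kidney, by 1.21- to 1.29-fold, and 0 fell. They were Rps29, Rps28, Rpl41, Rpl38, Rps2, Rpl13a, Rps18, Rps10, Rps14 and Rpl19, with adjusted p from 0.0181 to 0.0499 (limma, 2-sided, Benjamini-Hochberg over 22519 tested probe sets, threshold 0.05). Over all 12196 tested genes, 3.08% rose and 3.02% fell by the same rule. The direction was not shared by every scaling: after quantile normalization 0 of the 46 rose and 1, Rps9, fell, where 1.65% of all tested genes rose and 1.71% fell. After cyclic loess normalization the counts were again 0 and 1, beside 1.66% and 2.06% of all genes. When each array was centred on its median, 4 rose and 0 fell, beside 1.40% and 5.49% of all genes, in a setting that moved the median difference of all tested genes from -0.0052 to -0.10. At an unadjusted p under 0.05 there were 20 higher and 4 lower genes under the authors' scaling, 1 and 12 with quantile normalization, and 1 and 6 with cyclic loess.

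The count of 10 past the adjusted threshold also changed when single mice were left out. It was 5, 0, 4, 1 and 5 without control replicate 1, 2, 3, 4 and 5. It was 1, 1, 1, 9 and 12 without calorie-restricted replicate 1, 2, 3, 4 and 5. Higher genes at an unadjusted p under 0.05 (limma) moved less, at 15, 17, 19, 17 and 17 without control replicates 1 to 5. They numbered 15, 16, 22, 18 and 19 without calorie-restricted replicates 1 to 5, beside 20 with all arrays. The adjusted count was 0 in fits without the filter on dim probe sets or without the intensity trend, where 16 and 14 genes were higher at an unadjusted p under 0.05. Shares of all tested genes that passed in these fits are not given here. Rps10 was higher past the threshold in 13 of 25 other settings, more than any other gene of the family. In a comparison of replicates 4 and 5 only, whose 3' to 5' ratios lay together, 40 of 46 differences were above 0, their median was 0.11 (log2), and 0 passed the threshold, while 57 genes of the whole table rose and 66 fell. There, 48.5% of all tested genes were above 0. Among genes with a mean log2 signal of 13 or more, 34 of 34 of the family were above 0, with a median of 0.11. So were 365 of 430 others of that brightness, with a higher median of 0.21.

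Across the 46 genes the median difference, calorie restricted minus control, was 0.14 on the log2 scale, with 37 genes above 0 and 9 below, where the median over all tested genes was -0.0052. It was -0.0252 after quantile normalization, with 16 above and 30 below, 0.0170 after cyclic loess, with 24 and 22, and 0.0395 after median centring, with 27 and 19. The 24 genes with large-subunit names (Rpl, Rplp) had a median of 0.13, and 4 of them rose. The 22 with small-subunit names (Rps) had a median of 0.14, and 6 rose. These sets hold Rpl7l1, known from ribosome assembly, and Rps19bp1, and without them the medians were 0.14 over 23 genes and 0.15 over 21. The subunits were therefore close to each other under the authors' scaling, and both medians lay below 0 after quantile normalization, at -0.0447 and -0.0241, or -0.0699 and -0.0175 without that pair.

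**Figure D1:**
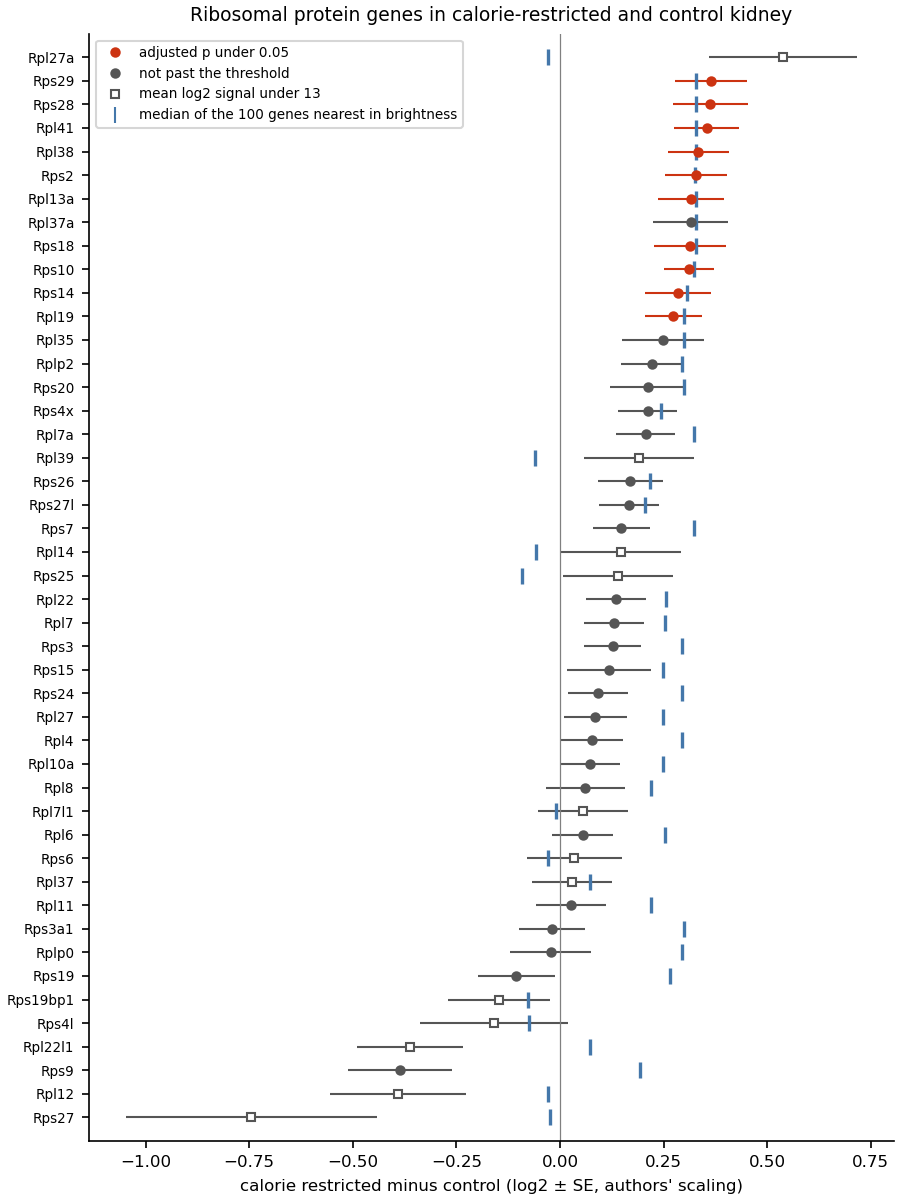
Difference between calorie-restricted and control kidney (log2, ± limma standard error, 5 mice per diet) for the 46 tested genes, in order; filled circles are genes with a mean log2 signal of 13 or more, open squares dimmer ones, red genes passed the threshold, and a blue tick is the median difference of the 100 other genes nearest in brightness. The 10 red genes sit at 0.27 to 0.36 on or beside their ticks, under the authors' scaling only, and most other bright genes sit to the left of theirs.

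The proteins behind the 10 rises come from both subunits, and the values of the clearest ones follow. Rps29, a small zinc-binding protein of the small subunit, had signals of 25545, 28651, 26704, 27610 and 27254 in control mice 1 to 5. Its calorie-restricted signals were 38745, 40509, 34706, 32868 and 28943, so that every one lay above every control, the last by little. The log2 difference was 0.36 ± 0.087 (SE, adjusted p = 0.0318).

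Rps28, which lies where the messenger RNA leaves the small subunit, was at 21279, 21857, 23033, 23706 and 23733 in controls. In calorie-restricted mice it was at 32955, 33696, 29362, 26641 and 24392. All 5 were again above all controls, with replicates 1 to 3 highest, and the difference was 0.36 ± 0.090 (adjusted p = 0.0350). Rps29 and Rps28 share this order of the mice: replicate 5 was lowest and replicates 1 and 2 were highest.

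Rps10, a protein of the head of the small subunit and one of the genes mutated in Diamond-Blackfan anaemia, separated the diets most cleanly. Control signals were 20735, 21702, 21749, 20995 and 21079, and calorie-restricted signals were 27327, 25332, 27047, 25339 and 26837. The spread within each diet was small and no calorie-restricted mouse came near a control. Its difference was 0.31 ± 0.059 (adjusted p = 0.0181), and in replicates 4 and 5 of both groups it was still 0.31 (adjusted p = 0.186). Quantile normalization left 0.0276 of it (adjusted p = 0.823).

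Rpl38, a large-subunit protein whose loss in mice alters the skeleton, stood at 25183, 28451, 29703, 28925 and 28591 in controls. Its calorie-restricted signals were 36347, 39711, 34083, 35904 and 31680. All 5 were higher than all controls, and the difference of 0.33 ± 0.074 (adjusted p = 0.0255) became -0.0172 after quantile normalization (adjusted p = 0.851). Control replicate 1 was the lowest of its group here, as it was for Rps29, Rpl41 and Rps2.

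Rpl41, the shortest and most basic of the ribosomal proteins, was at 23655, 26958, 30346, 26106 and 27898 in controls. It was at 34609, 37555, 33867, 35345 and 30876 in calorie-restricted mice, which again did not overlap the controls. The difference was 0.35 ± 0.078 (adjusted p = 0.0250). Its dimmest probe set, the one outside the s_at and x_at classes that can bind related transcripts, gave -0.25 ± 0.23 (adjusted p = 0.517), and the next dimmest, of the x_at class, gave -0.22 (adjusted p = 0.563). The direction for this gene thus rested on its 2 brightest probe sets, both of the x_at class.

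The remaining rises were similar in size. Rps2, at the channel by which messenger RNA enters, differed by 0.33 ± 0.074 (adjusted p = 0.0267). Rpl13a, which also takes part in silencing of inflammatory messenger RNAs outside the ribosome, differed by 0.32 ± 0.079 (adjusted p = 0.0356). Rpl19, which contacts the small subunit, differed by 0.27 ± 0.069 (adjusted p = 0.0364). In these genes all 5 calorie-restricted mice were above all controls. Rps18 of the small-subunit head and Rps14, the gene whose loss impairs red cell formation in a form of myelodysplasia, reached adjusted p = 0.0497 and 0.0499, and in each 1 calorie-restricted mouse lay within the control range. Of these genes, Rps18 turned to -0.0175 after quantile normalization.

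In all, 10 of the 46 genes had no overlap between the diets, each with calorie-restricted mice above, where 7.49% of all tested genes had none in either direction. They were 8 of the 10 rises (all but Rps14 and Rps18) together with Rpl7a and Rps4x, which missed the threshold (adjusted p = 0.0881 and 0.0868). Without calorie-restricted replicate 5, 17 genes had none. In 18 genes at least 4 of the 5 calorie-restricted mice were above every control. Shares of all tested genes for these last counts are not given here, so they only describe the family.

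**Figure D2:**
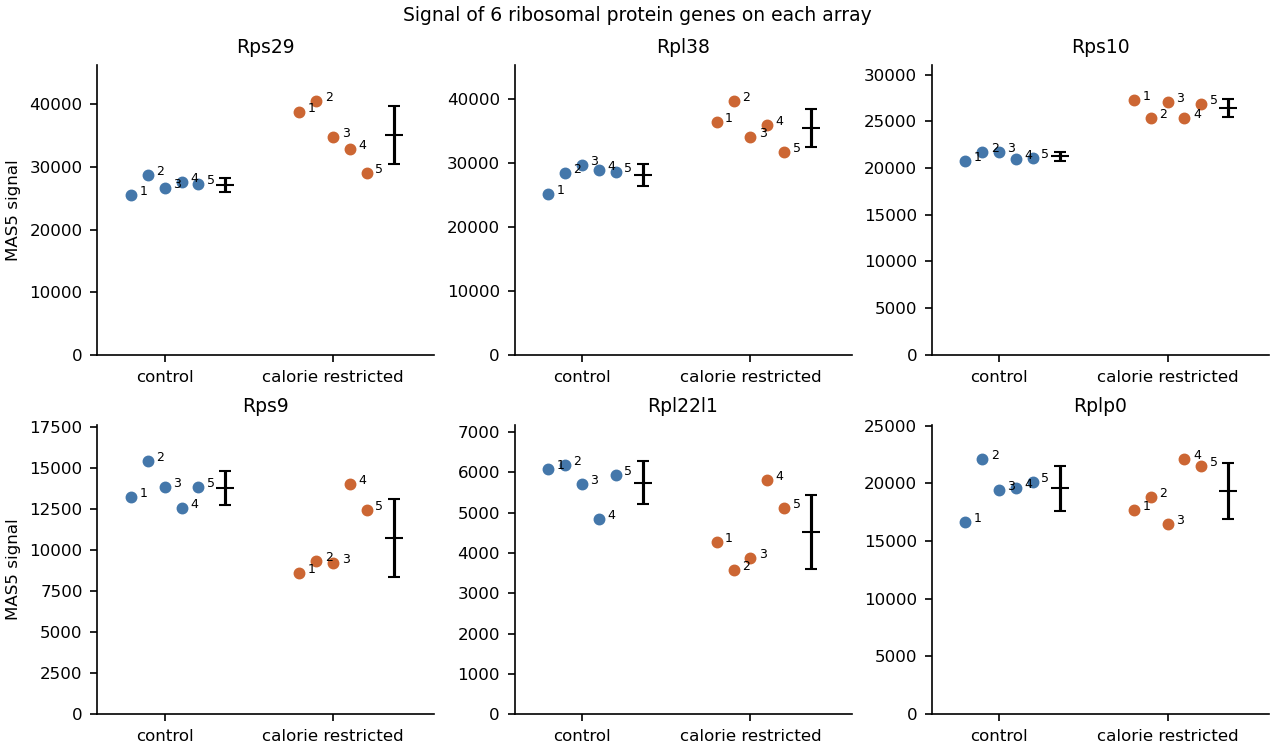
MAS5 signal of 6 ribosomal protein genes on each array (numbered points; bars are mean ± SD, 5 mice per diet). Rps29, Rpl38 and Rps10 are higher in every calorie-restricted mouse under the authors' scaling, Rps9 and Rpl22l1 are lowest in calorie-restricted replicates 1 to 3, and Rplp0 overlaps.

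The rises were then set against genes of like brightness, since the differences grew with signal. Probe sets of the 46 genes had mean log2 signals from 7.93 to 14.95, and 34 of them stood at 13 or more, a division taken after the values were seen because no member lay between 12.32 and 13.55. All 10 rises were among these 34, whose median difference was 0.17, and the 12 dimmer genes had a median of 0.0317 and 0 calls. Among the 430 other genes with probe sets at 13 or more, the median was 0.22, and 29.5% rose, 0.465% fell and 32.3% did not overlap. The ribosomal protein share, 10 of 34 for both rises and non-overlap, was thus near that of other bright genes.

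For each gene the 100 other genes nearest in mean log2 signal were taken, none chosen at random, and their median difference was subtracted. The remainder was -0.072 in the median over the 46 genes and -0.10 over the 34 bright ones, and 35 of the 46 and 29 of the 34 lay below their neighbours. Of the 10 rises 5 lay below. Rps29, Rps28 and Rpl41, the highest of the rises, exceeded their neighbours by 0.0356, 0.0349 and 0.0260, each less than its standard error. This remainder kept its sign in every setting tried, from -0.0418 with probe sets of a gene averaged to -0.12 without s_at and x_at probe sets. The wider band of 6399 genes between the 10th and 90th percentile of the family's brightness, log2 9.28 to 14.67, had a median of 0.00032, and 4.50% of it rose, 3.70% fell and 9.56% did not overlap.

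**Figure D3:**
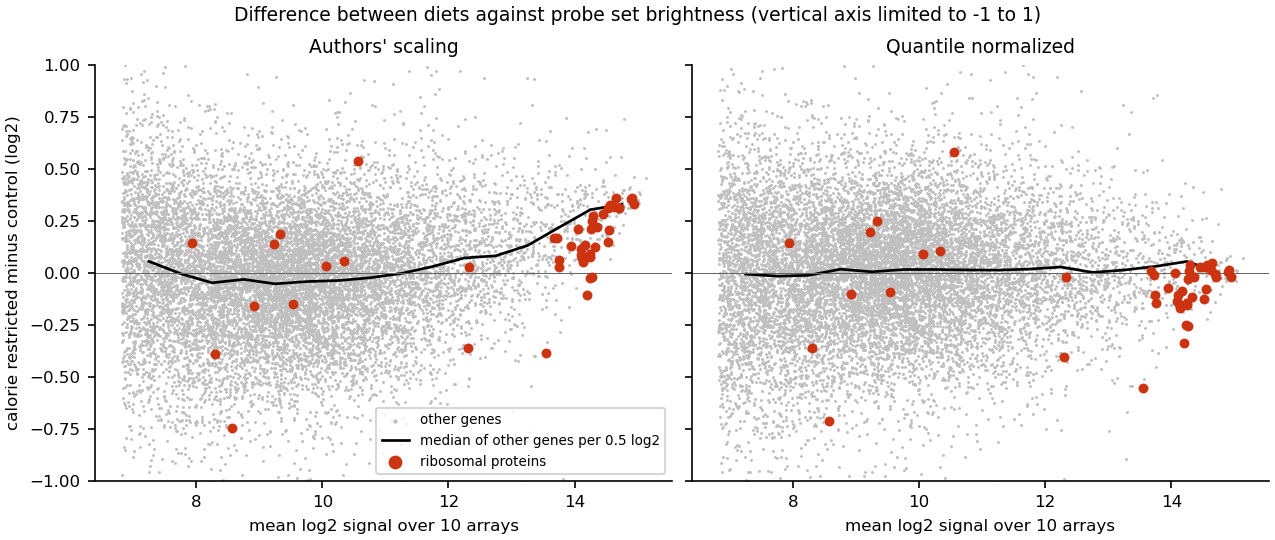
Difference between the diets (log2) against mean log2 signal for all tested genes (grey), with the running median of genes outside the family (line) and the ribosomal proteins (red), with the authors' scaling on the left and quantile normalization on the right. On the left the line climbs at the bright end, where the neighbours of the 34 bright ribosomal proteins had a median of 0.30, on the right it stays near 0, and most bright ribosomal proteins lie on or below it in both.

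Seen array by array, the same pattern held for the mean over the family. Its deviation from the 10-array mean was -0.17, -0.0132, -0.0047, -0.0022 and -0.0761 in control mice 1 to 5, and 0.0835, 0.10, -0.0457, 0.10 and 0.0225 in calorie-restricted mice 1 to 5. Calorie-restricted replicate 3 lay among the controls and control replicate 1 lay far below all others. The genes of like brightness did not overlap, at -0.12 to -0.0776 in controls and 0.0290 to 0.17 in calorie-restricted mice. After their subtraction the family stood at 0.0465 ± 0.0705 in controls and -0.0465 ± 0.0403 in calorie-restricted mice (SD, n = 5), and control replicate 1, at -0.0579, lay inside the calorie-restricted range of -0.10 to -0.0065 while the other 4 controls lay above it.

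**Figure D4:**
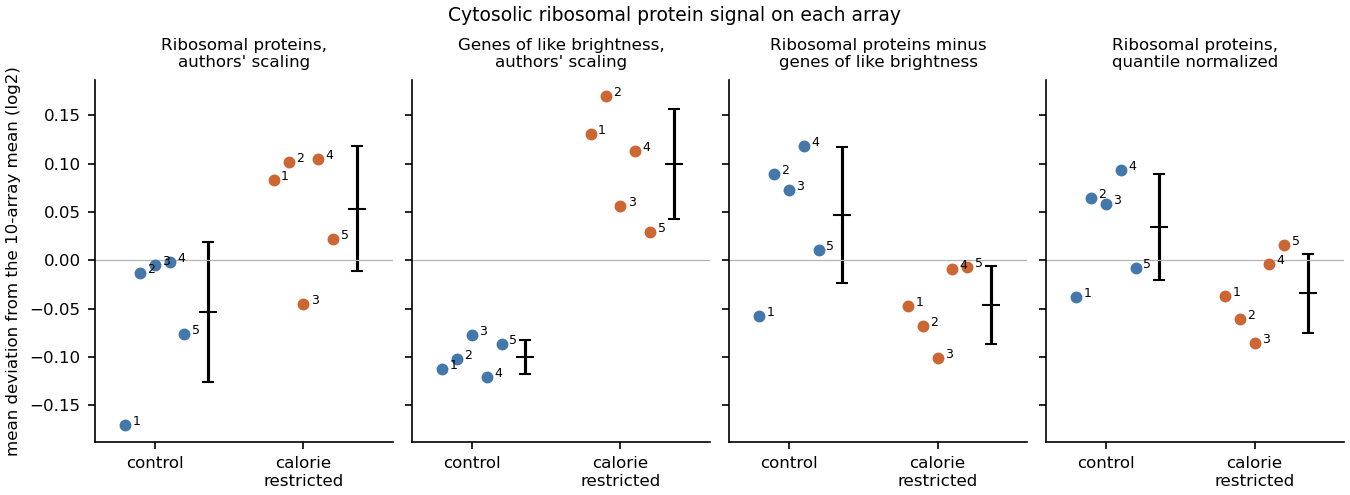
Mean log2 deviation from the 10-array mean on each array (numbered points; bars are mean ± SD, 5 mice per diet): the ribosomal proteins and their neighbours in brightness under the authors' scaling, the difference of both, and the ribosomal proteins after quantile normalization. Calorie-restricted mice are higher in the first panel except replicate 3, do not overlap controls in the second, and are lower on average in the last panels.

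Another 24 bright genes did not pass the threshold, with differences from -0.39 to 0.32, and 20 of them were above 0. Rpl37a (0.32, adjusted p = 0.0519) was nearest to it. Rps19, the gene most often mutated in Diamond-Blackfan anaemia, Rps3a1 and Rplp0 were at -0.11, -0.0198 and -0.0222, where their neighbours in brightness were at 0.27, 0.30 and 0.30. In each of these, 1% of the neighbours had a lower difference.

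Rps9, a small-subunit protein that helps keep decoding accurate, had the lowest difference among bright genes. Its control signals were 13241, 15393, 13819, 12580 and 13828. Its calorie-restricted signals were 8582, 9318, 9203, 14023 and 12434, so that replicates 1 to 3 were below every control, replicate 5 was just below, and replicate 4 was inside the control range. The difference was -0.39 ± 0.13 (adjusted p = 0.0772), and its neighbours in brightness were at 0.19. Rps9 fell past the threshold after quantile normalization (-0.55, adjusted p = 0.0357) and after cyclic loess (-0.52, adjusted p = 0.0445). It also passed without calorie-restricted replicate 4 (-0.49, adjusted p = 0.0241) or 5 (-0.45, adjusted p = 0.0415). With replicates 4 and 5 in each diet only it was at 0.0016, and in a fit that adjusts for the 3' to 5' ratio at -0.0446 (adjusted p = 0.894). Its other probe sets gave 0.0697 and -0.70 under the authors' scaling, so the probe sets did not share a direction.

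Rpl22l1, the paralog of Rpl22, was also lowest in calorie-restricted replicates 1 to 3. Its signals were 6079, 6178, 5704, 4847 and 5928 in controls and 4262, 3578, 3872, 5804 and 5118 in calorie-restricted mice. Replicates 1 to 3 were again below all controls and replicates 4 and 5 within their range, as with the 3' to 5' ratio of these arrays. The difference was -0.36 ± 0.13 (adjusted p = 0.0960), -0.46 without calorie-restricted replicate 4 (adjusted p = 0.0321) and 0.0240 with replicates 4 and 5 in each diet only. Rpl22 itself, an RNA-binding protein of the large subunit, was at 0.14 ± 0.072 (adjusted p = 0.253), with 4 calorie-restricted mice above all controls.

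The other low estimates came from dim probe sets. Rps27, a zinc-finger protein of the small subunit, was at 395, 727, 682, 569 and 254 in controls and at 231, 252, 250, 250 and 587 in calorie-restricted mice. The 4 low calorie-restricted values were close together and just below the lowest control, and replicate 5 stood among the higher controls. The difference was -0.75 ± 0.30 (adjusted p = 0.139), and -0.997 (adjusted p = 0.0302) without calorie-restricted replicate 5. Its paralog Rps27l, a target of p53, was at 0.17 ± 0.073 (adjusted p = 0.166) on a bright probe set of the x_at class, which can bind related transcripts. The paralogs were thus read by unlike probe sets, and their values do not compare the genes directly. Rpl12, near the base of the stalk, was at -0.39 ± 0.16 (adjusted p = 0.148), Rps4l at -0.16 ± 0.18 and Rps19bp1, also known as a regulator of Sirt1, at -0.15 ± 0.12.

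The highest estimate of the family also came from a dimmer probe set. Rpl27a, of the large subunit, had signals of 1013, 1671, 1305, 1401 and 994 in controls and 2340, 2393, 1568, 1499 and 1511 in calorie-restricted mice. Replicates 1 and 2 were well above all controls and the other 3 within or near their range. The difference was 0.54 ± 0.18 (adjusted p = 0.0811), higher than that of 99% of its neighbours in brightness and 0.58 after quantile normalization, but 0.27 in calorie-restricted replicates 4 and 5 against all controls.

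The stalk proteins and the members known for signalling outside the ribosome gave no call. Rplp0, the base of the stalk that recruits elongation factors, was at 16613, 22132, 19410, 19593 and 20101 in controls and 17655, 18833, 16472, 22097 and 21504 in calorie-restricted mice, with full overlap and a difference of -0.0222 ± 0.0975. Rplp2, which hangs from Rplp0, was at 0.22 ± 0.074 (adjusted p = 0.0825). Rps6, the protein that S6 kinases phosphorylate after mTORC1 activation, had signals of 1119, 1075, 952, 1061 and 1092 in controls and 996, 1306, 1191, 1066 and 904 in calorie-restricted mice. Its difference was 0.0347 ± 0.11 (adjusted p = 0.877), and its sign varied over the settings. The brightest probe set of Rps6 is among the 12 dimmer ones (mean log2 signal 10.06), so its value may not describe the gene. Rpl11, which binds and inhibits Mdm2 when it is not built into ribosomes, was at 0.0267 ± 0.0849 (adjusted p = 0.872).

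Of the paralogs that stand in for common members in particular tissues, most were dim. Rpl3l, a muscle form of Rpl3, and Rpl39l, a form found in testis, were below the filter, at signals of 59.7 to 90.3 and 7.9 to 36.2 in controls. Rps16, a core protein that every ribosome carries, was read at 1.5 to 28.7 by its single usable probe set, so that its value describes the probe set rather than the gene. Rps4x, the common X-linked form, was at 0.21 ± 0.072 beside -0.16 for Rps4l. Rpl7l1, known from ribosome assembly, was at 0.0561 ± 0.11, beside 0.13 ± 0.072 for Rpl7 and 0.19 ± 0.13 for Rpl39.

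Probe sets of 1 gene often differed from each other. 23 genes had more than 1 probe set, and of the 47 tested probe sets other than the brightest, 31 had the same sign as the brightest. Over all 93 tested probe sets of the family, 17 rose and 1 fell, where 2.93% of all tested probe sets rose and 3.16% fell. All 3 probe sets of Rps28 and of Rps29 rose, as did both of Rps14 and 2 of the 4 of Rpl41. For Rpl13a and Rps18 only the brightest, an x_at probe set, passed. Their other tested probe sets were at 0.13, 0.14 and -0.0400 for Rpl13a and at 0.21 and 0.14 for Rps18. Rps10 had probe sets past the threshold in both directions: an x_at probe set at 10279, 8611, 7984, 7961 and 10221 in controls and 6042, 3652, 5622, 4798 and 3957 in calorie-restricted mice fell by 0.92 ± 0.14 (adjusted p = 0.0114), while the brightest rose. The mean over the 6 probe sets of Rps10 was 0.00031. For Rpl7 the other probe sets were at -0.30 and -0.77 (adjusted p = 0.113 and 0.0537), with calorie-restricted replicates 1 to 3 lowest, against 0.13 for the brightest. A dim x_at probe set of Rpl37a was at 1.05 ± 0.25 (adjusted p = 0.0321). Ribosomal protein genes have many processed pseudogenes, and 7 of the 10 rises were read by x_at probe sets, so the single gene behind a value is uncertain. Without s_at and x_at probe sets 3 genes rose.

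The family's bright members moved together from array to array. The median Pearson r between pairs of the 34 bright genes over 10 arrays was 0.665, and 0.524 for deviations from the diet means, against 0.376 and 0.283 over all 46. The genes share arrays and scaling, so r is given as a description. To show the feature these RNAs are known to share, promoters were read from RefSeq for the mouse build GRCm38.p6, which held 51 promoters of 43 of the 49 genes and none of Rpl7, Rpl8, Rps14, Rps20, Rps29 and Rps4l. Each line gives 60 bases before the annotated start and 30 after it, 5′ to 3′ on the gene's strand, with the longest run of C and T near the start in capitals. Shown are, among tested genes with a single promoter in the table, the 3 largest rises (Rps28, Rpl41 and Rpl38), the 3 lowest estimates (Rps27, Rpl12 and Rps9) and the highest estimate (Rpl27a).
Rps28: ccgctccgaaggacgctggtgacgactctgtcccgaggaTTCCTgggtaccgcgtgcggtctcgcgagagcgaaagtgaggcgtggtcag
Rpl41: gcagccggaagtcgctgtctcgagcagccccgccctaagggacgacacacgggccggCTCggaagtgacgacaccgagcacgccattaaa
Rpl38: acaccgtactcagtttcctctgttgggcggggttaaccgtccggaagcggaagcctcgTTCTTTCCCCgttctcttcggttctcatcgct
Rps27: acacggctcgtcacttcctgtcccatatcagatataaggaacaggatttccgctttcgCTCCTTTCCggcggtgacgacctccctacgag
Rpl12: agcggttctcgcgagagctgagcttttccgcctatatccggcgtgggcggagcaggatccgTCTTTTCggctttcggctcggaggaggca
Rps9: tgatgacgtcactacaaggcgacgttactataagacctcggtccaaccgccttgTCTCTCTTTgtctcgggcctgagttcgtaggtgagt
Rpl27a: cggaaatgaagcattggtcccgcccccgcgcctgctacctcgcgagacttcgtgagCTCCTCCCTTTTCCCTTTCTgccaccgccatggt

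These windows lie at chr17:33824533-33824622 and chr10:128549139-128549228 on the minus strand for Rps28 and Rpl41, and at chr11:114668520-114668609 on the plus strand for Rpl38. That of Rps27 lies at chr3:90213619-90213708 on the minus strand. Those of Rpl12, Rps9 and Rpl27a lie at chr2:32961652-32961741, chr7:3703981-3704070 and chr7:109519135-109519224, all on the plus strand. Each spans the promoter's end and the first bases after the annotated start. Of the 7 windows, 4 hold a run of at least 8 pyrimidines at the start (Rpl38, Rps27, Rps9 and Rpl27a), while the longest runs of Rps28, Rpl41 and Rpl12 are 5, 3 and 7 bases. A run of C and T on the gene's strand counted, at its full length, if any part lay within 20 bases before to 30 after the start. A run of 8 or more was found in 56.9% of the family's promoters and 23.5% of all 32851 promoters in the table. It was present in 6 of 8 genes that rose and had a promoter, and in 22 of 35 other genes of the family. The letters CCGGAA, the core bound by ETS factors such as GABP, were found on either strand of the 300-base promoters in 52.9% of the family and 14.9% of all. Both were searched by letters alone, and the reverse complement of CCGGAA begins with pyrimidines that can overlap such a run.

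Genes outside the family that followed its mean most closely over the 10 arrays were Ndufb9 (r = 0.960), a subunit of respiratory complex I, Fau (0.933), Abcb1a (0.932), a drug efflux pump, Tcf19 (0.919) and Pttg1 (0.916). Fau encodes a small-subunit protein fused to a ubiquitin-like one, and differed by 0.23 ± 0.076 (adjusted p = 0.0821). Rpsa, the laminin receptor and small-subunit protein that the naming rule also misses, rose by 0.35 ± 0.096 (adjusted p = 0.0487), and stood at 0.14 after quantile normalization (adjusted p = 0.279).

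Genes of the wider translation pathway were counted from lists, beside the 3.08% and 3.02% of all tested genes that rose and fell. Of 16 tested genes for elongation factors and other terminal oligopyrimidine messenger RNAs, 2 rose and 0 fell (3 and 3 at an unadjusted p under 0.05, limma), with a median of -0.0563. Eef1a1, which brings transfer RNA to the ribosome, and Tpt1, the growth-linked protein TCTP, were up by 0.35 ± 0.074 and 0.38 ± 0.084 (adjusted p = 0.0216 and 0.0250). After quantile normalization they stood at -0.0159 and 0.0121. Of 23 initiation factors, 1 rose and 2 fell. Eif2s2, a subunit of the factor that carries the initiator transfer RNA, was at 0.44 ± 0.11 (adjusted p = 0.0379). Eif3m was at -0.48 ± 0.12 (adjusted p = 0.0364) and Eif4a2, an RNA helicase, at -0.42 ± 0.12 (adjusted p = 0.05, below the threshold before rounding). The median of the 23 was 0.0198.

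The machinery that makes ribosomes showed no call in either direction (limma, counts in parentheses at an unadjusted p under 0.05, higher and lower). Among 14 genes of RNA polymerase I, which transcribes ribosomal RNA, 0 passed (1 and 1), with a median of 0.0565, and Polr1e (0.46 ± 0.13, adjusted p = 0.0518) was nearest. Among 39 ribosome assembly factors 0 passed (4 and 7), with a median of -0.0919, and Rrp1 (0.30 ± 0.088, adjusted p = 0.0551) and Nop2 (0.60 ± 0.19, adjusted p = 0.0686) had the smallest p. Among 18 genes of the mTORC1 and S6 kinase pathway 0 passed (4 and 3), with a median of -0.0083. Mtor itself was at 0.56 ± 0.17 (adjusted p = 0.0577) and Myc, which drives ribosome production, at -0.61 ± 0.19 (adjusted p = 0.0704). Of 5 tested genes of the p53 response to free ribosomal proteins, Mdm2, the ligase that Rpl11 inhibits, fell by 0.99 ± 0.25 (adjusted p = 0.0357), and Ccng1 rose by 0.44 ± 0.11 (adjusted p = 0.0391). Cdkn1a, Mdm4 and Bbc3 did not pass, at -0.41, -0.51 and 0.22, and the median of the 5 was -0.41. The mitochondrial ribosomal proteins, a separate family of 76 tested genes with dimmer probe sets, had a median of 0.0474, and 1 rose (Mrpl44, 0.40 ± 0.11, adjusted p = 0.0490) and 0 fell (9 and 7).

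Markers of kidney and other cells moved with the diet as well, and their part in the values above was not tested. The kidney label had its defining markers: Kap, of the proximal tubule, was at 22040 ± 3686 and 36674 ± 4602, and Umod, of the thick limb, at 25838 ± 2175 and 31542 ± 3128 (signal, SD, n = 5, control and calorie restricted). Of 7 proximal tubule markers 6 rose, with a mean log2 deviation of -0.44 to -0.0814 in controls and 0.13 to 0.31 in calorie-restricted mice. Of 6 macrophage markers 3 fell (0.0387 to 0.69 against -0.41 to 0.0639), of 5 stromal markers 2 fell (-0.0561 to 0.68 against -0.54 to -0.0218) and of 3 adipocyte markers 2 fell (0.14 to 1.10 against -0.79 to -0.12). Of 4 podocyte and of 4 B lineage markers 1 fell, of 4 endothelial markers 0 passed (0 and 2 at an unadjusted p under 0.05, limma), and of 3 collecting duct and 2 red cell markers 1, Slc4a1, which both lists hold, rose. Of 4 thick limb and distal tubule markers 0 passed (2 and 0), and of 5 T cell markers 1, Cd3g, was above the filter and it did not pass. The proximal tubule markers lie at the bright end, with a median mean log2 signal of 14.61. Their median difference was 0.38 under the authors' scaling and 0.0987 after quantile normalization. Beside genes of like brightness the median remainder was 0.0661. No tested probe set had a signal under 1. In whole kidney, fewer cells of a type and less RNA per cell cannot be told apart.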

How the data were processed

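Kidney RNA of 10 mice, 5 per diet, was measured on 10 arrays, 1 mouse per array. Per the submitters' processing notes, Affymetrix Expression Console and MAS5 were used; versions and background settings are not stated there. What the authors deposited is an intensity per probe set, not log-transformed, whose mean after trimming 2% at each end was 500 on every array; arrays were scaled to that mean and their distributions were left unequal. Per the labels' protocols, Trizol was used to isolate total RNA, of which 5 ug was labelled.

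Signals below 1 were set to 1 (919 values, 0 among tested probe sets) and log2 was taken. After removal of 64 Affymetrix controls, probe sets with a mean log2 signal at or above the median, 6.81, were tested (22519 of 45101). Calorie restricted minus control was fitted with limma 3.58.1 in R 4.3.3 (lmFit, eBayes with trend, 2-sided). P-values were adjusted by Benjamini-Hochberg across the 22519 probe sets, with a threshold of 0.05, and the script was tested on simulated data. Errors are limma standard errors, n = 5 per diet, and p-values reflect how these 10 mice varied, with precision limited by the number of arrays. Genes were named from the platform annotation, where 34945 probe sets had 1 symbol, 932 several and 9160 none. Genes named are those past the threshold, the 6 highest and 6 lowest differences, the brightest and dimmest 3, the stalk proteins, Rps6, Rpl11 and paralogs, in each list up to 3 genes past the threshold or the 2 with the smallest p, and the 5 most like the family's mean; others that the text names as examples were chosen after their values were seen. Alternatives were the scaling, pseudocount (50), filter, trend, array weights, replicate block, 3' to 5' ratio, probe set of a gene, and each array left out.

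The members, the gene lists and the tests were chosen with earlier results of these data known, so their counts are descriptions. Promoters are those of RefSeq for GRCm38.p6; the build behind the array annotation is not stated in these sources.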

Additional observations from a re-analysis of the deposited data

Results flagged for a closer look

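In 64 groups of 5 mice tested for a single mouse standing apart, 5 did by Dixon's criterion (critical value 0.71), where chance gives about 1 in 20. Control replicate 1 was far below the other controls for Rpl38, at a log2 signal of 14.62 against 14.80 to 14.86, and for Rps4x, at 13.82 against 13.96 to 14.01. Calorie-restricted replicate 5 was far above its group for Rps27, at 9.20 against 7.85 to 7.98. Calorie-restricted replicate 3 was far below its group for Rps19bp1, at 9.09 against 9.49 to 9.60. Control replicate 3 was far above its group for Rps16, at 4.84 against 0.62 to 1.42, on a probe set under the filter.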

How the results depend on the processing

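The 10 genes that rose under the authors' scaling became 0 after quantile normalization, after cyclic loess, without the filter, without the intensity trend, with the replicate block, with the 3' to 5' covariate (also together with quantile normalization), and when calorie-restricted mice 4 and 5 were set against all controls or against control mice 4 and 5. They became 4 after median centring and 3 without s_at and x_at probe sets, and 0 to 12 with 1 array left out. Not every setting lowered the count. Genes past the threshold in either direction numbered 10 with a pseudocount of 50 and 12 with array weights, Rps9 among the latter as lower. With a stricter filter that kept 30% of probe sets, 11 of the 44 genes in the fit passed. Over all 12196 tested genes, 3 rose and 4 fell with the covariate. With calorie-restricted mice 4 and 5 against all controls 0 rose and 0 fell, so a count of 0 there is not particular to the family. With replicates 4 and 5 of each group 57 rose and 66 fell. Shares of all genes without the filter, without the trend, with the block or with 1 array left out are not given here. The cause of these changes in the count was not tested. The fit without the filter adjusted over more probe sets, and fits with arrays left out held fewer mice. With limma's unadjusted p under 0.05 the block gave 15 higher and 3 lower, the covariate 7 and 0, the covariate with quantile normalization 0 and 2, calorie-restricted mice 4 and 5 set against all controls 10 and 0, replicates 4 and 5 of each group 5 and 0, and the fit without control replicate 2 17 and 3. The count that fell went from 0 to 1 (Rps9) after quantile normalization, cyclic loess and with array weights, and was 0 to 2 with 1 array left out. Genes without overlap went from 10 to 6 (quantile, all lower), 1 (cyclic loess), 3 (median centring), 5 (no s_at or x_at) and 20 (replicates 4 and 5 of each group, 2 against 2), and were 10 to 17 with 1 array left out. Over all 12196 tested genes 391 lay above and 393 below without overlap after quantile normalization, and 390 and 426 after cyclic loess. For the other settings no share of all genes is given, and groups of fewer mice separate more easily, so those counts are not a result about the family.

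The median difference of 0.1372 became -0.0252 (quantile), 0.0170 (cyclic loess), 0.0395 (median centring) and -0.0562 (covariate with quantile). In that order the large subunit's 0.1324 became -0.0447, -0.0102, 0.0346 and -0.0485, and the small subunit's 0.1437 became -0.0241, 0.0258, 0.0460 and -0.0695. Past-threshold genes changed sign after quantile normalization (Rpl38 -0.0172, Rps18 -0.0175), with the covariate as well (Rpl13a -0.0484, Rpl38 -0.0418, Rps18 -0.1006, Rps28 -0.0845, Rps29 -0.0654), and without s_at and x_at probe sets (Rpl41 -0.2532). The difference from genes of like brightness, -0.0721 under the authors' scaling, is larger in size than its spread between arrays (SD 0.0574). Under all alternatives it moved from that value by less than this spread, and with arrays left out it ran from -0.0939 to -0.0497. Of 670 alternative values for named genes, 158 kept their direction and lost a call, 8 gained one, and 54 had the opposite sign, 8 of them for the past-threshold genes above and the rest for genes that had not passed. Same-numbered mice of the diets did not deviate together (correlations -0.141 to -0.0872), so the numbers do not pair them, and the block called 0 genes. The 12 dimmer genes and those read by x_at probe sets are the least certain.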
